A study of Mus musculus with 15 samples.

Results

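The AIM2-like receptors, also called the Ifi200 or PYHIN family, are encoded side by side on mouse chromosome 1, and 8 of them were followed here: Aim2, Ifi202b, Ifi203, Ifi204, Ifi205, Mnda, Mndal and Pyhin1. They were taken by gene name, as 8 of the 32544 entries of the deposited gene count table. The samples were 15 tumors from WEHI-164, a mouse fibrosarcoma cell line, grown under the skin of female BALB/c mice labelled WT in genotype and described as young adults by the age range in the study's methods. The day 0 group was untreated, and the day 1, day 3, day 5 and day 7 groups were harvested during or after intratumoral injection of poly(I:C), a synthetic double-stranded RNA, with 3 tumors a group. The labels give 1 µg in 25 µL each day for a planned 6 doses. Other text of the study gives a higher dose, so the dose is uncertain. No vehicle-injected tumors of matched days were among these samples, so poly(I:C), injection and time in the animal cannot be told apart. Every tumor came from the same single cell line.

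Family members carry a pyrin domain, which binds other pyrin domains, a HIN domain, which binds DNA, or both. AIM2 binds DNA in the cytosol and, through the adaptor ASC, assembles an inflammasome, the platform on which caspase-1 matures interleukin-1 beta and interleukin-18 and cuts gasdermin D. Most of the family are interferon-inducible genes and are best known from macrophages and other myeloid cells. The tumors are mixtures of cancer cells, stroma and host immune cells, so fewer cells of a type and less RNA per cell cannot be told apart.

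In outline, the mean level of every member was highest on day 1 or day 3 and was near the day 0 level again on day 7. The day of the highest mean differed between members, but this depended on a single tumor, day 1 replicate 3. With that tumor left out, the estimate of every member was higher on day 3 than on day 1, by log2 fold changes from 0.14 (Ifi203) to 1.97 (Ifi205). The tumors of these days still overlapped for Ifi202b and Ifi203. With day 3 replicate 2 left out instead, Ifi202b was at -0.40. Ifi202b, Ifi203, Ifi204, Mnda and Mndal were higher than on day 0 in all 3 day 1 tumors and again in all 3 day 3 tumors. Aim2 overlapped day 0 on day 1 and stood above it on day 3. Ifi205 and Pyhin1 had the largest day 3 folds.

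The family's location and upstream sequence come first, because reads can be shared between such similar neighbors. GENCODE M21 (GRCm38) places the 8 loci on chromosome 1, from Aim2 at chr1:173350879-173466040 on the plus strand to Ifi205 at chr1:174011998-174031810 on the minus strand. Pyhin1, which RefSeq names Ifi209, lies at chr1:173630917-173647928 on the plus strand. Ifi204 lies at chr1:173747293-173766943, Mndal at chr1:173849126-173942491, Mnda (Ifi211 in RefSeq) at chr1:173896345-173913046, Ifi203 at chr1:173920407-173942672 and Ifi202b at chr1:173962568-173982744, all on the minus strand. The annotated Mnda locus lies within that of Mndal, and the Mndal and Ifi203 loci overlap, all on the same strand. Each count covers a gene's exons, since reads were assigned to transcripts.

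Sequence sharing differed between members. Of all stretches of 31 bases in a gene's annotated transcripts, 1.2% of those of Ifi202b and 4.89% of those of Aim2 also occurred in a transcript of another gene. The share was 21.6% for Ifi203, 22.1% for Ifi205, 28.7% for Mndal, 34% for Ifi204, 47.2% for Pyhin1 and 78.9% for Mnda, where 49.5% of the stretches occurred in Ifi205. Values of Mnda and Pyhin1 are therefore uncertain as to which copy the reads came from, and those of Aim2 and Ifi202b least so. The annotated sequences are those of the C57BL/6J reference and the mice were BALB/c, which adds to that uncertainty.

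RefSeq promoter windows on GRCm38.p6, each 250 bases before to 50 bases after an annotated start, were on hand for 7 of the 8 members, all but Ifi204. They were searched on both strands for the core of the interferon-stimulated response element (ISRE), with the letters GAAANNGAAA, which transcription factor ISGF3 and interferon regulatory factors bind. The core was in a window of Ifi203, Ifi205, Mnda and Mndal, and in none of Aim2, Ifi202b and Pyhin1. Of all 32851 RefSeq windows, 3.44% held it, as did those of 10 of the 15 genes with a window among the 20 of an interferon response list. The 50 bases around the core are printed here 5′ to 3′ on the gene's strand, since they show how alike these neighbors are, with the core in capitals and, for Pyhin1, the stretch nearest to it.
Ifi203, second start, chr1:173942498-173942547, minus strand: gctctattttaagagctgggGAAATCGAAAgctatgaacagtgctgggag
Mndal, first start, chr1:173880194-173880243, minus strand: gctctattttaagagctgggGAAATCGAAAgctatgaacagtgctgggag
Mnda, chr1:173913054-173913103, minus strand: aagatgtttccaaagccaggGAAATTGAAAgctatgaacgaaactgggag
Ifi205, chr1:174031860-174031909, minus strand: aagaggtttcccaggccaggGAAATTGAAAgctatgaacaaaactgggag
Pyhin1, chr1:173630760-173630809, plus strand: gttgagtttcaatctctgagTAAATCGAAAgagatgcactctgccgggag
Gm4955, chr1:173491329-173491378, minus strand: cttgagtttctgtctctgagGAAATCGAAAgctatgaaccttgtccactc
Pydc4, chr1:173599316-173599365, minus strand: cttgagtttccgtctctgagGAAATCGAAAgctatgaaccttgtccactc

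The printed windows of Ifi203 and Mndal were identical, with the core beginning at position -35 and -36 from the start. In Mnda the core began at -37. In Ifi205 it began at -134, with a match on the opposite strand at position 23. Mndal had another match at -54 of its second start, on the opposite strand. The first start of Ifi203 had none. The nearest stretch in Pyhin1 began at -79 and differed from the core by 1 letter, G1T, counted from the 5′ end of the core. Aim2 and Ifi202b also had a stretch 1 letter from the core, on the opposite strand, at -51 and 24. How many of all windows hold such a stretch was not counted. Gm4955 and Pydc4 are 2 of the 4 family genes outside the 8 that had a window. All 4, which include AI607873 and Pydc3, held the core, at -40, -41, -58 and -73 in the order Gm4955, AI607873, Pydc3 and Pydc4.

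The interferon gamma activated site (GAS), with the letters TTCNNNGAA, was in the window of Ifi202b alone among the 7 members and in 8.3% of all windows. No family window held both motifs. The Ifi202b match is shown in capitals because it was the only motif found there, and the whole Aim2 window is shown because it held neither.
Ifi202b, chr1:173982964-173983012, minus strand: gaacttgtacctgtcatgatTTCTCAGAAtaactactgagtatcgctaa
Aim2, chr1:173420354-173420653, plus strand: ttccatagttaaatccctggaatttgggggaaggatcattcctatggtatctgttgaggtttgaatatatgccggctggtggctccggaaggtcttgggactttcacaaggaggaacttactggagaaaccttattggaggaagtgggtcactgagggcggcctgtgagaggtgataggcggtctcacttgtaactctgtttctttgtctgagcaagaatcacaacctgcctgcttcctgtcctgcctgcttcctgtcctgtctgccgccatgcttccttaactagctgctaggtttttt

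A match to these letters is a description of the window and not a binding site, and the absence of one says only that the letters are not there.

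**Figure D1:**
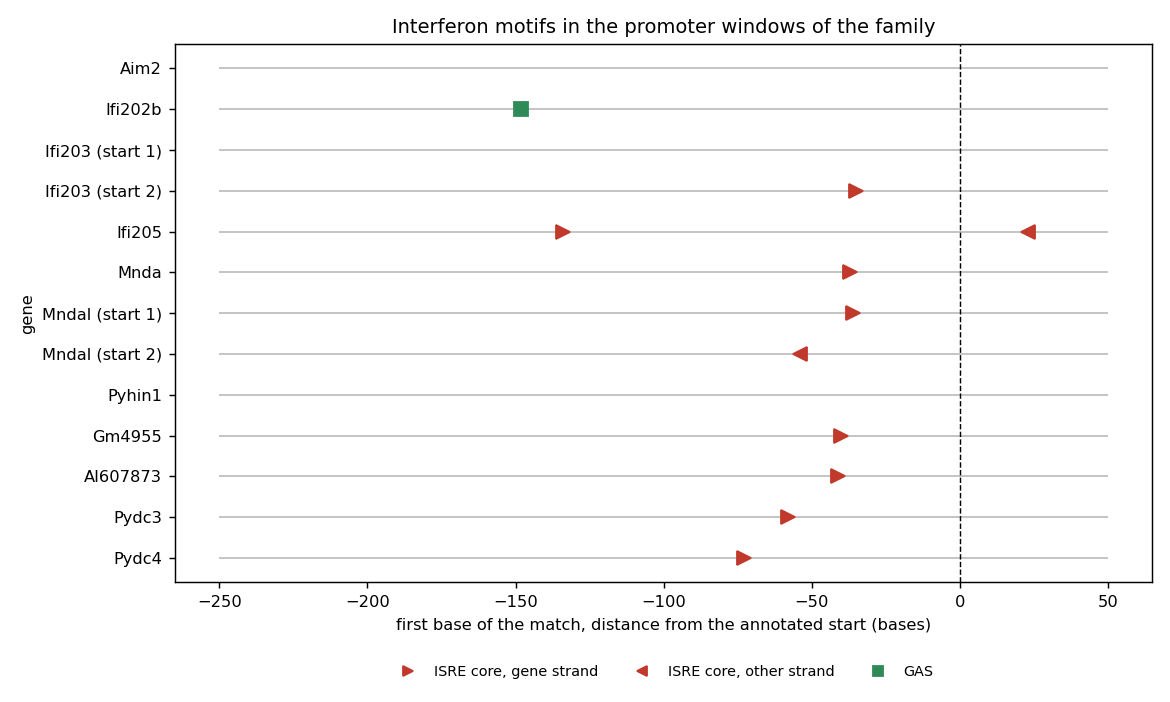
Distance in bases of each motif match from the annotated start (dashed line at 0) for the promoter windows of the family, 1 row per start. Red triangles are ISRE cores on the gene's strand (pointing right) or the other strand (pointing left), the green square is the GAS, and rows with no mark held neither; most cores sit between -73 and -35.

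Total counts ran from 23.7 to 31.9 M a tumor, and 3 counts, the limit set by a count of 0, were 0.094 to 0.127 counts per M of a tumor's total (CPM, with M for 1000000). Levels below are CPM after trimmed mean of M-values (TMM) normalization unless another scale is named. Day 3 replicate 1 stood apart from the other tumors. Its correlation of log2 CPM with the other 14 averaged 0.884, against 0.956 to 0.976 for the rest, and its summed skeletal muscle markers were 2231.3 CPM where no other tumor passed 141. The 8 markers of fibroblastic cells, the labelled tumor type, summed to between 7600.9 and 29248.6 CPM, the highest in that tumor, and none was at 0. The 3 tumors of a day come from separately labelled samples, and the labels do not say more about how they relate.

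On the untreated day 0, the members covered a wide range of levels. Compared per kilobase of the longest annotated coding transcript, Ifi202b was at 82.7 ± 7.32 CPM per kb, Ifi203 at 60.4 ± 6.79, Ifi204 at 55.7 ± 5.56, Mndal at 36 ± 4.4 and Mnda at 18.9 ± 3.54 (SD, n = 3). Ifi205 was at 4.85 ± 1.05 CPM per kb, Aim2 at 3.45 ± 0.704 and Pyhin1 at 3.13 ± 0.676. Ifi203 and Ifi204 did not differ beyond their spread, and neither did Ifi205, Aim2 and Pyhin1. By that length, the DNA-binding antagonist Ifi202b was the most abundant member and Aim2 among the 3 least abundant. Annotated coding transcripts run from 762 to 2026 bases for Mndal and from 326 to 2839 for Aim2, so this order depends on the transcript chosen. Levels of different genes also depend on how shared reads were assigned.

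Aim2, the inflammasome sensor, had values of 7.48, 10.8 and 11 CPM (day 0), 8.32, 9.85 and 15.5 (day 1), and 44.4, 17.7 and 18.1 (day 3). Values were then 20.2, 17.2 and 11.3 (day 5) and 10.2, 12.2 and 7.35 CPM (day 7). All 3 day 3 tumors were above every day 0 and day 1 tumor, the day 5 tumors were above day 0 by a small margin, and day 1 and day 7 overlapped day 0. The log2 fold change against day 0 was 0.20 ± 0.37 (SE) on day 1, 1.45 ± 0.38 on day 3 (edgeR quasi-likelihood test, adjusted p = 0.115), 0.73 ± 0.38 on day 5 and 0.02 ± 0.38 on day 7. The day 3 value was 0.88 without day 3 replicate 1, the tumor that stood apart.

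Ifi202b encodes p202, which has HIN domains and no pyrin domain and is known as an antagonist of AIM2. Its level is known to differ between inbred mouse strains. It was at 128, 153 and 139.8 CPM (day 0), 190.1, 181 and 353 (day 1), 170.0, 275 and 197 (day 3), 163, 186 and 161 (day 5), and 143, 133 and 128 (day 7). The day 1, day 3 and day 5 tumors were all above day 0 and the day 7 tumors overlapped it. Log2 fold changes were 0.78 ± 0.23 (SE) on day 1 (edgeR adjusted p = 0.999) and 0.61 ± 0.23 on day 3 (edgeR adjusted p = 0.129), and 0.39 on day 3 without day 3 replicate 2.

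Ifi204, whose protein p204 is regarded as a mouse counterpart of the human DNA sensor IFI16, had values of 116, 141 and 127 CPM (day 0) and 169, 178 and 402 (day 1). They were 207, 298 and 210.0 (day 3), 169, 185 and 133 (day 5), and 128, 124 and 98.2 (day 7). Day 1 and day 3 did not overlap day 0, and a single day 1 tumor, replicate 3, was above all others. The log2 fold change was 0.96 ± 0.29 (SE) on day 1 (edgeR adjusted p = 1) and 0.90 ± 0.29 on day 3 (edgeR adjusted p = 0.115).

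Ifi203, a nuclear member of the family, followed a like course at a higher count. It was at 202, 253 and 225 CPM (day 0), 279, 307 and 518 (day 1), 305, 366 and 292 (day 3), 236, 262 and 237 (day 5), and 194, 201 and 224 (day 7). The day 1 and day 3 tumors were above day 0, and day 5 and day 7 overlapped it. With log2 fold changes of 0.70 on day 1 and 0.50 on day 3, each with a standard error of 0.20, it had the smallest day 3 difference of the 8.

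Mnda is named after the human myeloid cell nuclear differentiation antigen, and Mndal after Mnda. Mnda was at 27.3, 39.9 and 34 CPM (day 0), 45.2, 49 and 113 (day 1), 65.7, 78.2 and 60 (day 3), 46.3, 48.4 and 37.2 (day 5), and 34.1, 37.3 and 28.8 (day 7). Mndal was at 63.2, 80.6 and 75.2 CPM (day 0), 88.4, 96.4 and 178 (day 1), 160.0, 132 and 101 (day 3), 91.1, 82.6 and 69.4 (day 5), and 57.2, 60.5 and 64.9 (day 7). For both, the day 1 and day 3 tumors were above day 0 without overlap, and the day 5 and day 7 tumors overlapped it. Their day 3 log2 fold changes were 1.01 ± 0.29 (SE) for Mnda (edgeR adjusted p = 0.115) and 0.84 ± 0.24 for Mndal (edgeR adjusted p = 0.115).

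Ifi205 and Pyhin1 were low at the start and had the largest folds of the 8. Ifi205 was at 5.93, 9.16 and 8.4 CPM (day 0), 10.8, 6.66 and 38.6 (day 1), 59.5, 26.2 and 17.1 (day 3), 21, 14.4 and 6.79 (day 5), and 5, 10 and 3.47 (day 7). Pyhin1 was at 8.32, 13 and 11 CPM (day 0), 14.6, 15.9 and 72.6 (day 1), 59, 53.6 and 32 (day 3), 27.5, 26.5 and 13.9 (day 5), and 7.65, 15.1 and 6.64 (day 7). Day 3 did not overlap day 0 for either gene, while on day 1 Ifi205 overlapped it and Pyhin1 was above it by a small margin in 2 of 3 tumors. The day 3 log2 fold change was 2.13 ± 0.68 (SE) for Ifi205 (edgeR adjusted p = 0.115) and 2.16 ± 0.58 for Pyhin1 (edgeR adjusted p = 0.115). Without day 3 replicate 1 that of Ifi205 was 1.47.

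**Figure D2:**
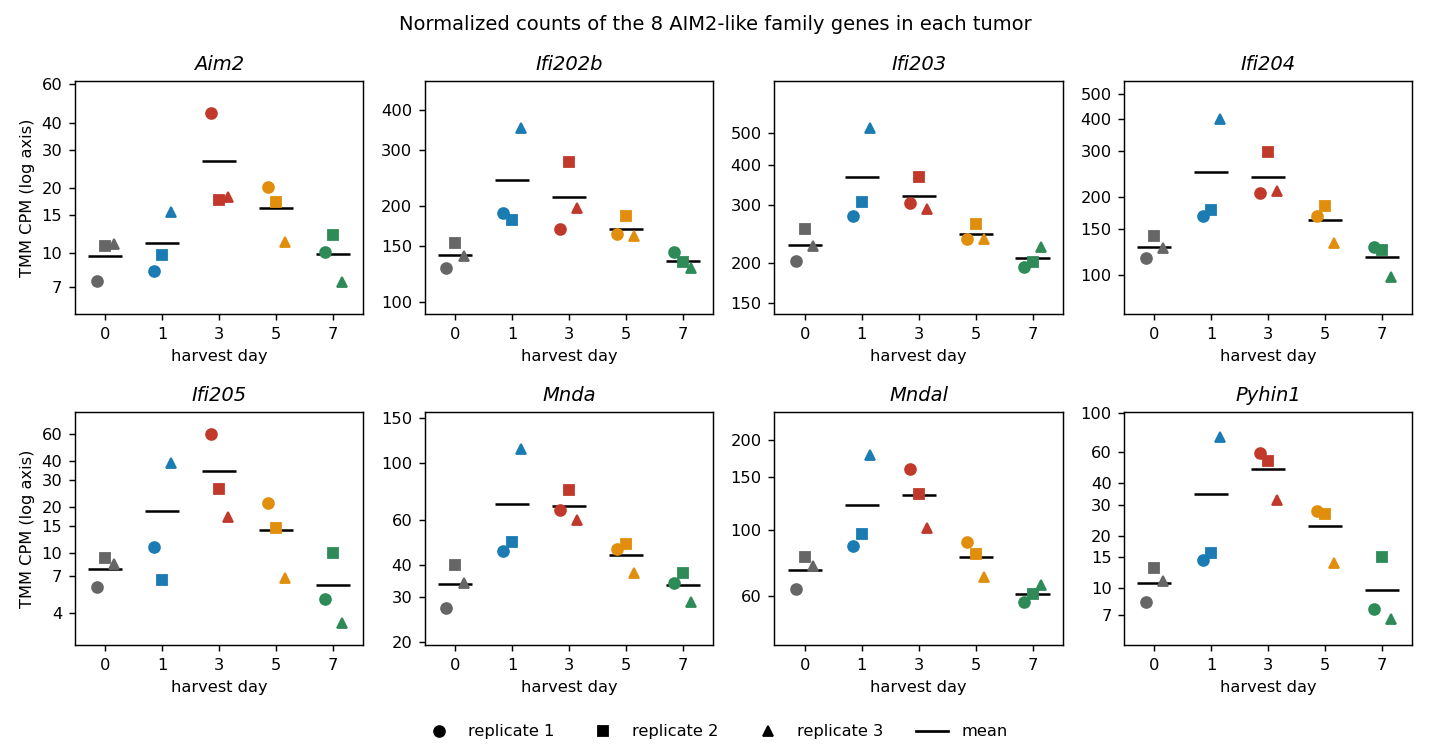
TMM CPM (log axis, a different range in each panel) of each member in each tumor by harvest day; marker shapes give the replicate number and bars the mean of 3 tumors. Day 1 replicate 3 is the highest of the 15 tumors for Ifi202b, Ifi203, Ifi204, Mnda, Mndal and Pyhin1, and day 3 replicate 1 for Aim2 and Ifi205.

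On day 1 against day 0, the question was how early levels of the family differed. All 8 members had a higher mean, with a median log2 fold change of 0.87 against -0.00 over all 15494 genes tested. At the edgeR adjusted threshold of 0.05, 0 of 8 members were called, as were 0% of all genes. At an unadjusted p under 0.05, 6 of 8 were higher, all but Aim2 and Ifi205, where 2.18% of all genes were. The tumors of the 2 days did not overlap for the same 6, against 5.76% of all genes. DESeq2 called 0 of 8 members higher against 0.24% of its genes.

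The day 1 differences leaned on replicate 3. Without it, log2 fold changes were -0.10 for Aim2, 0.16 for Ifi205, 0.50 for Pyhin1, 0.34 for Mndal, 0.37 for Ifi203, 0.41 for Ifi202b, 0.44 for Ifi204 and 0.48 for Mnda. The interferon response list summed to 7461.9 CPM in that tumor and to 2980.0 and 3198.6 in the other day 1 tumors, against 1601.8 to 2030.9 on day 0, and 20 of its 20 genes were higher on day 1 at an unadjusted edgeR p under 0.05. Its part in the member values was not tested.

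On day 3 against day 0, all 8 members were higher in every tumor. The groups did not overlap for 8 of 8 members, against 19.4% of all genes, and 8 of 8 were higher at an unadjusted edgeR p under 0.05, against 18.3%. With adjustment, 0 of 8 were called and 0% of all genes, with the members' adjusted p-values between 0.115 and 0.131. DESeq2 called 6 of 8 higher against 9.43% of its genes. The exceptions were Ifi202b (DESeq2 adjusted p = 0.0589) and Ifi203 (DESeq2 adjusted p = 0.0642). The median log2 fold change of the members was 0.95, against -0.02 over all genes.

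The 2 tumors with unusual levels moved these calls. DESeq2 called 0 of 8 members on day 3 without day 3 replicate 1 and 8 of 8 without day 1 replicate 3, while edgeR called 2 of 8 without day 1 replicate 3. Without day 3 replicate 1, 8 of 8 still had an unadjusted DESeq2 p under 0.05. The shares of all genes called in these settings are not given here, so a change over all genes cannot be told apart from one of the members. Marker lists moved as well. On day 3, 9 of 10 macrophage, 8 of 8 T cell and 18 of 20 interferon response genes were higher at an unadjusted edgeR p under 0.05, with median log2 fold changes of 1.52, 2.13 and 1.16. T cell markers summed to 30.9 to 44.7 CPM untreated and 91.3 to 327 in the day 3 tumors, and the interferon response list to 3586.9 to 5186.4 in the latter. Macrophage markers summed to between 1651.3 and 1800.1 CPM on day 0 and between 2757.3 and 6916.0 on day 3, the highest in replicate 1. No gene of these 3 lists was at 0 in any tumor. What part they had in the members' levels was not tested.

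Day 3 was also set against day 1, within treatment. Aim2 was 1.25 ± 0.38 (SE) higher on the log2 scale (edgeR adjusted p = 0.264), and was 0.67 higher without day 3 replicate 1. Ifi202b, Ifi203, Ifi204, Mnda and Mndal lay between -0.20 and 0.11, with standard errors of 0.19 to 0.29. Ifi205 and Pyhin1 were at 0.87 and 0.49 with standard errors of 0.65 and 0.55. With 1 tumor left out, Ifi205 ran from 0.21 (day 3 replicate 1 left out) to 1.97 (day 1 replicate 3 left out) and Pyhin1 from 0.12 (day 1 replicate 1) to 1.66 (day 1 replicate 3). Aim2 was the only member higher at an unadjusted p under 0.05, where 12.8% of all genes were. It was also the only one whose tumors did not overlap, against 7.53% of all genes. With adjustment edgeR called 0 of 8, and 0% of all genes. DESeq2 also called 0 of 8 members, against 0.11% of its genes. Without day 1 replicate 3, DESeq2 called 4 of 8 and the number at an unadjusted edgeR p under 0.05 was 6, so the low number of members past the threshold depended on that tumor. The shares of all genes in that setting are not given here, so whether the members differed from them there was not tested. Whether Aim2 differed from the other members in its course was not tested.

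On day 5 the family was between the day 3 and day 0 levels. All 8 means were higher than on day 0 (median log2 fold change 0.36), and the tumors did not overlap for 3 of 8, Aim2, Ifi202b and Pyhin1, against 6.89% of all genes. At an unadjusted edgeR p under 0.05, 0 of 8 were higher against 1.41% of all genes. With adjustment, edgeR called 0 of 8 and 0% of all genes, and DESeq2 called 0 of 8 against 0.0202% of its genes.

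By day 7 the values of all 8 members overlapped the untreated ones. The median log2 fold change against day 0 was -0.13, with single values from -0.34 for Ifi205 to 0.02 for Aim2 and standard errors of 0.19 to 0.67. Leaving out day 7 replicate 2 put Ifi205 at -0.88, and leaving out replicate 3 put it at -0.06. None of the 8 stood apart from day 0 in all tumors, where 5.02% of all genes were higher without overlap. At an unadjusted edgeR p under 0.05, 0 of 8 were higher against 1.05% of all genes. With adjustment, 0 of 8 members and 0% of genes were called by edgeR and 0 of 8 against 0.0195% by DESeq2. These standard errors leave room for differences of either sign.

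Against day 3, all 8 members were lower on day 7. Log2 fold changes ran from -0.64 for Ifi203 to -2.47 for Ifi205, with -1.43 for Aim2 and -2.29 for Pyhin1, and a median of -1.07 where the median over all genes was 0.02. The tumors did not overlap for 8 of 8, against 18.4% of all genes, and 8 of 8 were lower at an unadjusted edgeR p under 0.05, against 22.6%. With adjustment, edgeR called 0 of 8 and 0% of all genes, with members' adjusted p-values between 0.0832 and 0.09. DESeq2 called 8 of 8 lower, against 15.4% of its genes. Leaving out a tumor moved both: with day 1 replicate 3 left out edgeR called 5 of 8, and with day 3 replicate 3 left out it called 6. The shares of all genes called with a tumor left out are not given here. With day 3 replicate 1 left out DESeq2 called 2 of 8, while 8 of 8 had an unadjusted DESeq2 p under 0.05. In that setting DESeq2 gave no adjusted p to family genes of lower count such as Pydc4 and Gm4955. A member without an adjusted p counts as not called, so the 2 does not show that calls were lost. The edgeR log2 fold changes of Aim2 and Ifi205 were then -0.85 and -1.80. Without day 3 replicate 2, that of Ifi202b was -0.44.

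A joint test asked whether any treated day differed from day 0. At an unadjusted edgeR p under 0.05, 8 of 8 members passed against 16.2% of all genes. With adjustment, 0 of 8 and 0% of all genes did (members' adjusted p = 0.292). DESeq2's likelihood ratio test called 8 of 8, with adjusted p-values of 0.0036 to 0.025, against 7.63% of its genes. The comparisons with day 0 share the same 3 untreated tumors, so their values stand side by side and are not separate evidence.

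**Figure D3:**
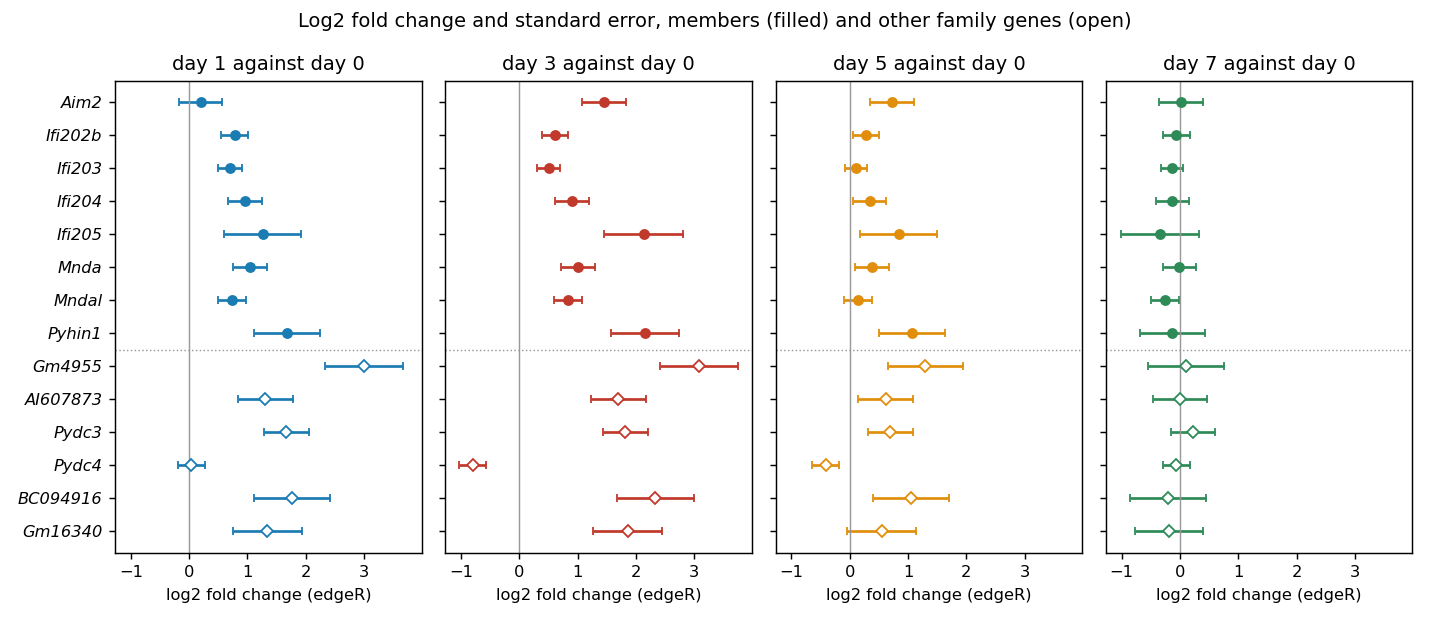
Log2 fold change (edgeR) with its standard error for each treated day against day 0, for the 8 members (filled circles) and 6 other family genes (open diamonds). On day 1, 7 members sit above 0 by more than a standard error, as do all 8 on day 3; Pydc4 alone lies below 0 on day 3.

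The summed level of the 8 members gave the family as a whole. It was 558, 701 and 631 CPM (day 0), 805, 843 and 1690.4 (day 1), 1070.3, 1245.8 and 926 (day 3), 774, 822 and 669 (day 5), and 580.0, 593 and 562 (day 7). The day 1 and day 3 sums were all above day 0, and day 1 replicate 3 was the highest. The abundant Ifi202b, Ifi203 and Ifi204 dominate this sum, so it says little of Aim2.

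The ratio of Ifi202b to Aim2 counts, antagonist to sensor, was set out after the values had been seen. It was 17.1, 14.1 and 12.7 (day 0), 22.9, 18.4 and 22.8 (day 1), 3.83, 15.5 and 10.9 (day 3), 8.07, 10.8 and 14.2 (day 5), and 14.1, 10.9 and 17.4 (day 7). Every day 1 tumor was above every day 0 and day 3 tumor, and day 3 overlapped day 0. The mean difference of the log2 ratio was 0.55 for day 1 against day 0 and -1.30 for day 3 against day 1. Each of these had an exact two-sided permutation p of 0.1, the smallest that 3 against 3 tumors allow, and day 3 against day 0, with a difference of -0.75, had one of 0.3. Without day 3 replicate 1 the differences of day 3 were -0.71 against day 1 and -0.16 against day 0. RNA counts do not measure the amounts of the 2 proteins.

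Each member was set against 2 marker lists across the 15 tumors. Of 16 pairs of a member with the interferon response or the macrophage list (mean log2 CPM), Ifi202b, Ifi204 and Mnda correlated most closely with the interferon list. Pearson's r was 0.97 for each, with Spearman's rho of 0.95, 0.95 and 0.96 (permutation p = 1e-05, the smallest these permutations can give, adjusted p = 2.67e-05). Ifi203 had an r of 0.96 and a rho of 0.92 at the same p. Without the 2 tumors farthest from the list's median, day 1 replicate 3 and day 3 replicate 2, r was 0.93, 0.92, 0.92 and 0.90 for Ifi202b, Ifi204, Mnda and Ifi203.

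Aim2 had an r of 0.47 and a rho of 0.63 with the interferon list (permutation p = 0.082, adjusted p = 0.0937 for r, and p = 0.0141, adjusted p = 0.0162 for rho), and r was 0.56 without the same 2 tumors. With the macrophage list its r was 0.97 and its rho 0.94 (permutation p = 1e-05, adjusted p = 2.67e-05), and r was 0.93 without day 3 replicates 1 and 3. For Ifi202b and Ifi203 the macrophage list gave an r of 0.40 and 0.43 (permutation p = 0.137 and 0.111, adjusted p = 0.137 and 0.119) and a rho of 0.58 and 0.52 (permutation p = 0.0262 and 0.0472, adjusted p = 0.0279 and 0.0472). Without day 3 replicates 1 and 3 those r were 0.58 and 0.45. Aim2 levels thus lay close to a line with the macrophage markers and those of Ifi202b with the interferon genes. No other list was set against the members, so a link of Aim2 to macrophage markers in particular was not tested. By mean log2 CPM, the T cell, NK cell, dendritic cell and inflammasome lists were, like the macrophage list, highest in day 3 replicate 1. By summed CPM, the NK cell list was highest in day 3 replicate 2, at 294 against 279 in replicate 1. The difference between the r values was not tested.

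Mndal, Pyhin1 and Ifi205 had a high r with both. With the interferon and the macrophage list, r was 0.89 and 0.68 for Mndal, 0.87 and 0.83 for Pyhin1, and 0.75 and 0.89 for Ifi205. For Ifi204 and Mnda, r with the macrophage list was 0.60 and 0.66. The highest adjusted permutation p of these 8 values was 0.0256, for Ifi204. For these pairs rho ran from 0.64 to 0.92, and r without the 2 farthest tumors from 0.54 to 0.83.

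The tumors come from 5 harvest days, so each of these r holds both the course over days and the differences between tumors of a day. With both levels centered on their harvest-day means, an alternative chosen after seeing the data, r with the interferon list was 0.96 for Ifi202b, 0.95 for Ifi204, 0.92 for Ifi203, 0.92 for Mnda and 0.83 for Pyhin1. The highest adjusted p of these 5 was 0.0316, by exact permutation of tumors within days over the same 16 pairs. For Mndal (0.72) and Ifi205 (0.61) the adjusted exact permutation p was 0.173 each, and for Aim2 (0.29) it was 0.446. With the macrophage list the centered r was 0.93 for Aim2, 0.85 for Ifi205 and 0.77 for Pyhin1 (adjusted exact permutation p = 0.011, 0.0178 and 0.0115). It was 0.65 for Mndal, 0.59 for Mnda and 0.48 for Ifi204 (adjusted exact permutation p = 0.071, 0.0629 and 0.206), and 0.32 and 0.18 for Ifi203 and Ifi202b. The centered rho ran from 0.72 to 0.92 for the 8 pairs past the threshold by r, of which Pyhin1 with the interferon list was not past it by rho (adjusted exact permutation p = 0.0741).

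**Figure D4:**
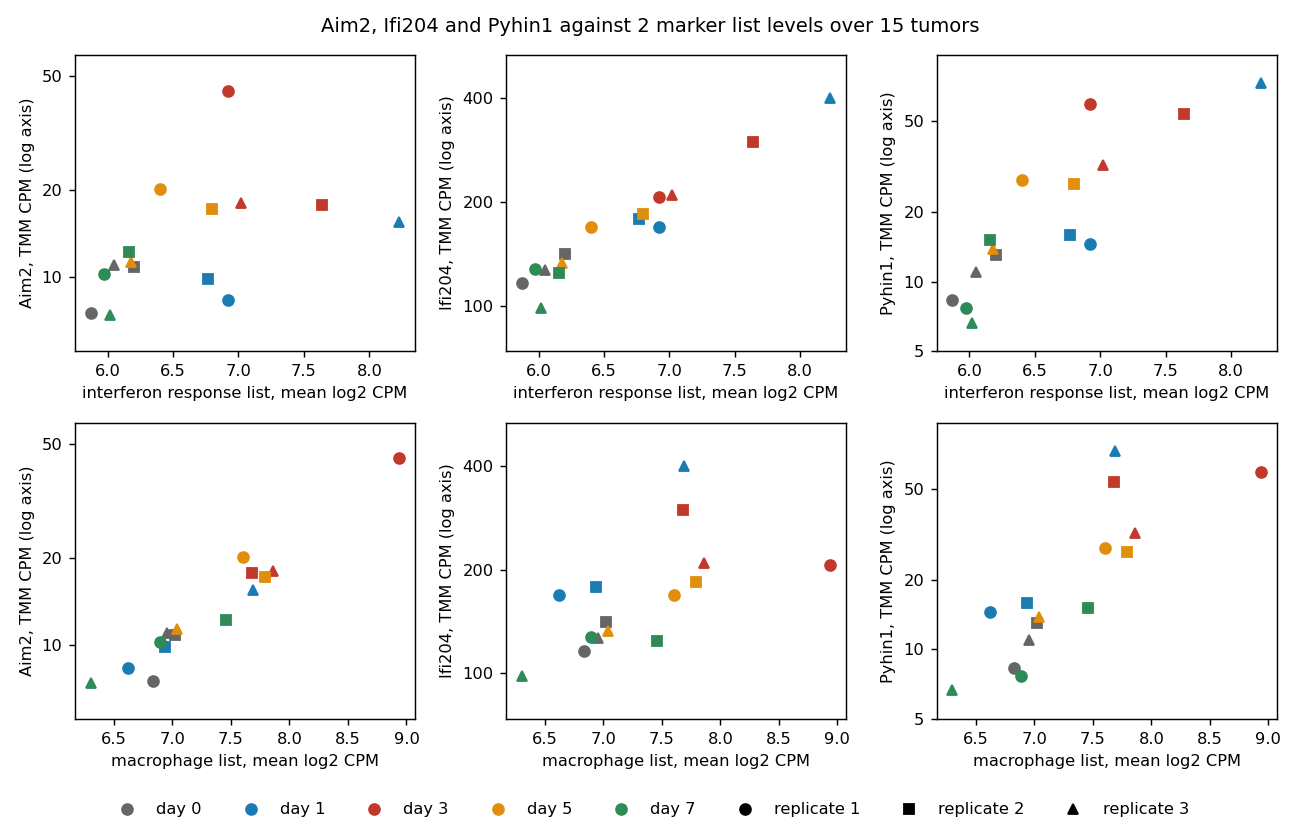
TMM CPM (log axis) of Aim2, Ifi204 and Pyhin1 against the mean log2 CPM of the interferon response list (top row) and the macrophage list (bottom row), 1 point per tumor, with color for the harvest day and shape for the replicate. Aim2 has a higher r with the macrophage list (0.97) than with the interferon list (0.47). Ifi204 has a higher r with the interferon list (0.97) than with the macrophage list (0.60). The differences between the r values were not tested.

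Outside the family, the 5 tested genes whose log2 CPM was most like that of Aim2 over the 15 tumors were Cyth4, Psen2, Lrmp, Nipal3 and Arl6ip1, with r from 0.984 to 0.989. The 5 most like the mean of the 8 members were Slfn8, Trim30a, H2-T24, Ly6c2 and Sp100, with r from 0.986 to 0.991. These are a description, picked as the highest of all genes tested.

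The table held 6 further genes of the cluster: Gm4955 (Ifi206 in RefSeq), AI607873 (Ifi207), Pydc3 (Ifi208), Pydc4 (Ifi213), Gm16340 (a pseudogene of Ifi203) and BC094916, for which no coordinates are given here. At an unadjusted edgeR p under 0.05, 5 of 6 were higher and 0 lower on day 1, where 2.18% of all genes were higher and 0.981% lower. On day 3, 5 were higher and 1 lower, against 18.3% and 11.7% of all genes. With adjustment 0 of 6 were called by edgeR on either day. DESeq2 called 2 higher on day 1, and 0 lower, against 0.24% and 0.0195% of its genes, and 5 higher and 1 lower on day 3, against 9.43% and 4.09%. It called 0 of 6 on day 1 without day 1 replicate 3, and 2 higher and 0 lower on day 3 without day 3 replicate 1. The shares of all genes in these settings are not given here. With all tumors, the log2 fold changes of the 6 genes had medians of 1.50 (day 1) and 1.84 (day 3).

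Gm4955 had the largest difference of the family. It was at 0.539, 0.93 and 1.28 CPM (day 0), 2.74, 2.63 and 16.7 (day 1), 6.48, 10.2 and 6.53 (day 3), 2.41, 2.84 and 1.51 (day 5), and 0.935, 1.25 and 0.752 (day 7). Day 1, day 3 and day 5 did not overlap day 0. The log2 fold change was 3.00 ± 0.67 (SE) on day 1 (DESeq2 adjusted p = 0.00483) and 3.08 ± 0.67 on day 3 (edgeR adjusted p = 0.115, DESeq2 adjusted p = 0.00212). Without day 1 replicate 3 the day 1 value was 1.55 ± 0.39 (DESeq2 adjusted p = 0.224). BC094916 and Gm16340 followed with day 3 log2 fold changes of 2.33 and 1.86 and standard errors of 0.66 and 0.59.

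Pydc4 went the other way and was picked out for that after its values were seen. It was at 22.5, 20.8 and 17.2 CPM (day 0), 21.2, 24 and 17 (day 1), 8.05, 14.8 and 11.8 (day 3), 14.1, 13.3 and 18 (day 5), and 22.8, 15.2 and 20.2 (day 7). All 3 day 3 tumors were below every tumor of day 0, day 1 and day 7. The day 3 log2 fold change against day 0 was -0.80 ± 0.23 (SE) (edgeR adjusted p = 0.115, DESeq2 adjusted p = 0.0203), and -0.60 in DESeq2 without day 3 replicate 1 (DESeq2 adjusted p = 0.209). Its promoter window holds the ISRE core in a printed stretch that matches the one of Gm4955 at all but 1 base, and 26.5% of its 31-base stretches occur in another gene.

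Partners of AIM2 in the inflammasome were read from a list of 18 genes. Their summed level was highest in day 3 replicate 1, at 1186.6 CPM against 865 and 791 in replicates 2 and 3. No values of this list without that tumor are given here, so its part in the day 3 differences was not tested. On day 3, 11 of 18 were higher at an unadjusted edgeR p under 0.05, against 18.3% of all genes, and 0 lower, 0 were called with adjustment, and DESeq2 called 9 higher, against 9.43% of its genes, at a median log2 fold change of 1.08. Pycard, which encodes the adaptor ASC, averaged 9.03 ± 2.57 CPM untreated (SD, n = 3). Its means were 11 ± 5.64 (day 1), 26.3 ± 15 (day 3), 14.7 ± 5.49 (day 5) and 10.3 ± 3.6 (day 7). Its highest mean, like that of Aim2, was on day 3, with a log2 fold change of 1.54 ± 0.47 (SE) (edgeR adjusted p = 0.115, DESeq2 adjusted p = 0.0217).

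Casp1, the caspase the platform activates, was at 67.1 ± 11.6 CPM on day 0 and 109 ± 2.49 on day 3, a log2 fold change of 0.70 ± 0.25 (SE) (edgeR adjusted p = 0.119, DESeq2 adjusted p = 0.0474). Gsdmd, the pore-forming substrate, was at 106 ± 7.47 and 140.5 ± 20.6 CPM (DESeq2 adjusted p = 0.134). The 2 cytokine substrates differed in value. Il18 was at 1.89 ± 0.306 CPM on day 0 and 6.03 ± 3.04 on day 3, a log2 fold change of 1.67 ± 0.49 (SE) (DESeq2 adjusted p = 0.021). Il1b was at 38.5 ± 12.2 and 35.1 ± 5.49 CPM, a log2 fold change of -0.13 ± 0.46 (SE) (DESeq2 adjusted p = 0.878). Il18bp, which encodes a secreted inhibitor of interleukin-18, had the largest difference of the list, from 21 ± 6.79 to 118 ± 56.4 CPM (log2 fold change 2.49 ± 0.67, edgeR adjusted p = 0.115, DESeq2 adjusted p = 0.00765).

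Other parts of cytosolic DNA sensing gave a mixed picture, and for these genes too no values without day 3 replicate 1 are given. Of 21 genes, 7 were higher and 3 lower on day 3 at an unadjusted edgeR p under 0.05, against 18.3% and 11.7% of all genes. With adjustment edgeR called 0 and DESeq2 called 7 higher, against 9.43% of its genes, and the median log2 fold change was 0.06. The cGAS gene (Mb21d1), whose enzyme makes the second messenger for STING, was at 36 ± 5.45 CPM on day 0 and 36.8 ± 11.7 on day 3 (log2 fold change 0.03 ± 0.21). The STING gene (Tmem173) was at 72.2 ± 8.31 and 95.3 ± 20.2 CPM (log2 fold change 0.40 ± 0.20, DESeq2 adjusted p = 0.145). Zbp1, a sensor of Z-form nucleic acid, was at 119.8 ± 20.4 CPM on day 0, 294 ± 161 on day 1 and 273 ± 60.1 on day 3 (day 3 log2 fold change 1.19 ± 0.36, DESeq2 adjusted p = 0.0214).

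Trex1, the nuclease that clears cytosolic DNA, was at 13.6 ± 1.78 CPM on day 0 and 43.8 ± 20.5 on day 3. Its log2 fold change was 1.69 ± 0.54 (SE) (edgeR adjusted p = 0.115, DESeq2 adjusted p = 0.0229). Ikbke, a kinase that activates interferon regulatory factors, was at 41.7 ± 8.26 and 121 ± 50.6 CPM, a log2 fold change of 1.54 ± 0.40 (SE) (edgeR adjusted p = 0.115, DESeq2 adjusted p = 0.0108). On day 7 against day 0, 0 of 18 inflammasome and 0 of 21 DNA-sensing genes were higher or lower at an unadjusted edgeR p under 0.05. Of all genes, 1.05% were higher at that threshold, so these numbers do not set the lists apart from all genes. The share of all genes that were lower is not given here.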

How the data were processed

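Poly(A) RNA of 15 tumors was sequenced as 100-base single-end reads. Per the labels, the authors quantified transcripts with kallisto on GRCm38. Per the study's methods, transcripts were summed to genes with tximport. The transcript set and strand setting are not given in the sources used here. The deposited values are estimated read counts per gene in whole numbers, 1 column a tumor, used as counts. kallisto shares ambiguous reads between similar genes, which matters for paralogs. One date-like entry (at most 0.0268% of a tumor) was left out. Gene names matched for 31964 entries.

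Genes reaching the study's CPM minimum (8.68 to 11.7 counts) in at least 3 tumors, 15494 in all, were tested with edgeR 4.0.16 in R 4.3.3 (TMM, quasi-likelihood test, harvest day as the only term, Benjamini-Hochberg over all genes, threshold 0.05). All 8 members passed. DESeq2 1.42.0 was an alternative, with other size factors, no filter, the replicate block and leaving out each tumor. Only the edgeR test was checked on simulated counts. These had the same spread for all genes and no tumor that stood apart, so the check says little of these data. Log2 CPM for correlations used a prior count of 2, with 100000 permutations. Named genes were the members, the 3 genes of each related list with the largest day 3 log2 fold change, and a set of pathway genes. The members and lists were chosen with earlier results of these data known. Tumors were grouped by the time point label. P-values set a difference or a correlation against the spread between these tumors. Values after ± are the SD between tumors or the standard error of the edgeR fit, which includes that spread. The limit of 3 counts covers counting error only. Depth was 23.7 to 31.9 M counts a tumor. Replicate numbers did not pair tumors (correlation of deviations from -0.619 to 0.511, over 0.1 in 9 of 30 pairs).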

Additional observations from a re-analysis of the deposited data

How the results depend on the processing

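With edgeR, the number of members called at an adjusted p under 0.05 was 0 in every comparison with TMM or other size factors, with no filter and with the replicate block. The block left the numbers at an unadjusted p under 0.05 at 6, 8, 0, 0, 1, 8 and 8 (treated days 1, 3, 5 and 7, then day 3 over day 1, day 7 over day 3, and the joint test). Leaving out each tumor gave 0 to 2 called on day 3, 0 to 6 for day 7 against day 3, 0 to 2 at an unadjusted p on day 5 and 0 to 6 for day 3 against day 1. DESeq2 called 6 on day 3, 8 for day 7 against day 3 and 8 jointly. Alternatives chosen after seeing the data were DESeq2 without day 3 replicate 1 (0, 2 and 6, with 2 at an unadjusted p on day 5) and without day 1 replicate 3 (8, 8 and 8, with 4 called and 6 at an unadjusted p for day 3 against day 1, and 3 at an unadjusted p on day 5). Members to which DESeq2 gave no adjusted p for day 7 against day 3 in the first of these count as not called. The shares of all genes called with a tumor left out are not given here. Of 1008 recomputed log2 fold changes of single members, 932 kept their direction and side of the threshold, 48 newly passed it and 28 changed sign. On day 1, Aim2 was -0.10 (edgeR) or -0.11 (DESeq2) without day 1 replicate 3, and leaving out a tumor gave up to 0.37. On day 7 against day 0, leaving out a tumor gave Aim2 -0.16 to 0.19, Ifi202b -0.12 to 0.01, Mnda -0.15 to 0.12, Ifi205 -0.88 to -0.06 and Pyhin1 -0.59 to 0.08, and the block gave Aim2 -0.01 and Mnda 0.00. On day 3 against day 1, leaving out a tumor gave Ifi202b -0.40 to 0.21, Ifi203 -0.36 to 0.14, Ifi204 -0.28 to 0.46, Mnda -0.26 to 0.53, Mndal -0.07 to 0.51, Ifi205 0.21 to 1.97 and Pyhin1 0.12 to 1.66. DESeq2 without day 1 replicate 3 gave 0.23, 0.16, 0.48 and 0.55 for the first 4, and without day 3 replicate 1 gave Ifi204 0.02 and Mndal -0.06. With the interferon list, Aim2 passed the threshold by Spearman's rho (0.63) and without day 3 replicate 1 (r = 0.55), with r of 0.54 without day 1 replicate 3. With the macrophage list, Ifi202b did so by rho (0.58) and without that tumor (r = 0.58, against 0.41 without day 1 replicate 3) and Ifi203 by rho (0.52). Centered on harvest-day means, r no longer passed for Ifi205 (0.61) and Mndal (0.72) with the interferon list and for Ifi204 (0.48), Mnda (0.59) and Mndal (0.65) with the macrophage list. The cause of these changes was not tested.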
